A study of Mus musculus with 4 samples.

Results

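IL-10 is a cytokine that dampens inflammation, and group 2 innate lymphoid cells (ILC2s), lymphocytes without antigen receptors that drive type 2 inflammation of the lung, can make it when they are activated. It signals through a receptor of 2 kinds of chain. Il10ra encodes the chain that binds the cytokine, and Il10rb encodes the accessory chain, which is also used by other cytokines of the family. Binding activates the kinases JAK1 and TYK2 and the transcription factor STAT3. Prdm1 and Maf encode the transcription factors Blimp-1 and c-Maf, both known to support Il10 transcription in T cells.

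The genes described here are Il10, Il10ra, Il10rb, Prdm1 and Maf, the 5 rows with these gene symbols among the 22558 genes of the deposited count table. RNA was sequenced from sorted lung ILC2s of WT (C57BL/6) mice in 2 libraries and of ICAM-1 KO mice on the C57BL/6 background in 2 libraries, to ask what ICAM-1, an adhesion molecule of the ILC2 surface, does to the ILC2 transcriptome. All mice were 6 weeks old according to the labels and received 3 intranasal doses of 0.5 µg rmIL-33, the alarmin that activates ILC2s. Lungs were taken on day 4, and each library was made from a pool of 4 mice, so the spread between libraries is not the spread between animals. The ICAM-1 KO line carries a constitutive Icam1 mutation in every cell and so lacks the intact gene in other lung cells as well.

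The estimated counts summed to between 24796148 and 28782471 per library. The targeted gene Icam1 was counted 2579 and 2630 times in WT and 2812 and 3453 times in the others (log2 fold change 0.33, SE 0.108, adjusted p = 0.0745, edgeR). Because its RNA was not lower there, the others are named by their label only, as the KO-labelled libraries. The study reports, from flow cytometry of lung ILC2s, that mice of this line lack ICAM-1 protein, which the present libraries do not measure. Of 16 genes that mark ILC2s, all passed the filter on low values, with summed normalized counts of 10240 and 10726 in WT and 8761 and 9048 in the KO-labelled libraries. A normalized count is the authors' upper quartile normalized value, in which each library has the same upper quartile. Markers of other lung cells were present in all 4 libraries, and many were called higher in those labelled ICAM-1 KO, as described after the members.

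Il10 RNA rose, Prdm1 RNA rose and Il10ra RNA fell in the KO-labelled libraries, while Il10rb and Maf did not pass the threshold, which was a Benjamini-Hochberg adjusted p under 0.05 over the 11711 genes tested, by the quasi-likelihood method of edgeR. Thus 3 of the 5 members were called, against 13.8% of all genes tested. By direction, 2 of 5 were called higher against 8.8% of all genes and 1 of 5 lower against 4.97%. The members were chosen with earlier results of these data known, so these shares are no test of the set. All 5 members passed the filter on low values, which was applied to the 4 libraries together. With its WT mean of 2.52 in all 4 libraries, Il10 would have passed the summed limit of 10 only narrowly. In each of the 5, both libraries of one label lay beyond both of the other, which was also the case for 59.5% of all genes tested. The KO-labelled libraries were the higher ones for 4 members, against 28.3% of all genes, and the lower ones for Il10ra, against 31.3%. Il10 alone was called with a change of at least 2-fold, as were 4.94% of all genes in the higher direction and 0.538% in the lower one. The median log2 fold change of the 5 was 0.38, beside 0.01 over all genes tested. In bulk RNA, a change in the share of cells that express a gene and a change in its RNA per cell cannot be told apart.

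**Figure D1:**
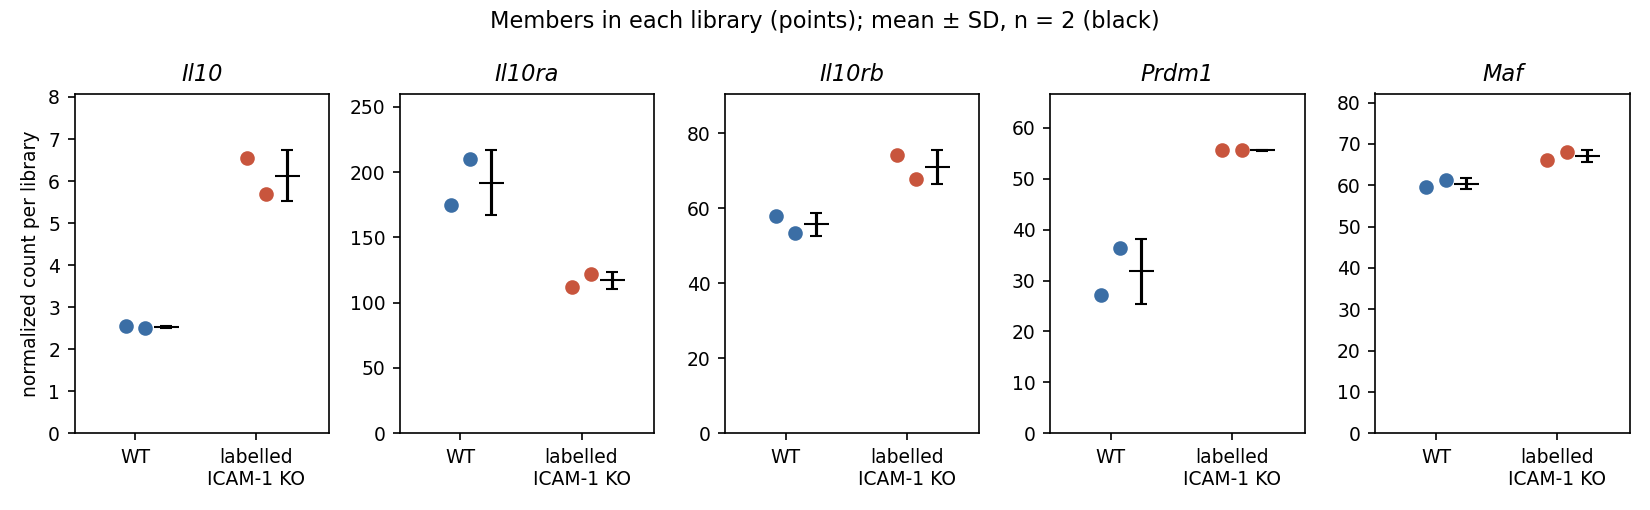
Normalized count (vertical axis, from 0) of each member in the 2 WT libraries (blue) and the 2 KO-labelled libraries (red), with the mean ± SD of each group in black (n = 2). Il10 moved from about 2.5 to between 5.7 and 6.56, and Il10ra is the member whose red points lie below the blue ones.

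Il10 occupies bases 131019845 to 131024974 of chromosome 1 (mm10, plus strand), and no other annotated gene overlaps it. Its reads numbered 76 and 78 in WT against 188 and 178 in the KO-labelled libraries. This is 2.79 and 2.71 CPM in WT, with exact Poisson 95% intervals of 2.2 to 3.49 and 2.14 to 3.38. In the KO-labelled libraries it is 7.58 and 6.48 CPM, with intervals of 6.54 to 8.75 and 5.57 to 7.51. The intervals, which cover counting error only, of the WT libraries lay below those of the others. The mean normalized count was 6.13 ± 0.606 (SD, n = 2) under the KO label and 2.52 ± 0.0286 (n = 2) in WT. This 2.43-fold rise had a log2 fold change of 1.31 with a 95% interval of 0.51 to 2.12 (adjusted p = 0.0421, edgeR). Among all genes tested, 4.93% had a larger change in either direction, and 8.66% had a lower mean level than Il10. The call was lost with no filter on low counts (adjusted p = 0.0957), with the filterByExpr filter (0.0645), with an older version of the quasi-likelihood method (0.0544), with limma (0.0586) and whenever any 1 of the 4 libraries was left out, where the adjusted p was between 0.0795 and 0.136 and the log2 fold change between 1.22 and 1.41.

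Il10ra encodes the ligand-binding chain, and it was the member with the highest level per kilobase of exon and the only one of the 5 that fell. It lies on chromosome 9 from 45253837 to 45269149 on the minus strand, 24.2 Mb from Icam1 on the same chromosome. The WT libraries held 5291 and 6629 counts and the KO-labelled libraries held 3239 and 3814. Normalized counts were 175 and 210 in WT and 112 and 122 in the KO-labelled libraries, so the WT libraries differed from each other by more than the others did, but both were above them. The mean fell from 192 ± 24.9 to 117 ± 6.42 (SD, n = 2 libraries each), a log2 fold change of -0.69 with a 95% interval of -0.95 to -0.43 (adjusted p = 0.00674, edgeR). Unlike Il10, Il10ra passed the threshold under all 12 alternatives, with a log2 fold change from -0.82 to -0.55 when 1 library was left out. A gene and a microRNA that overlap it in the annotation, Gm20612 and Mir7086, were not analysed here.

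Il10rb, the accessory chain, was not called. It spans 91406164 to 91425834 of chromosome 16 (plus strand), with normalized counts of 57.9 and 53.4 in WT and of 74.2 and 67.8 in the KO-labelled libraries. Both of the latter were above both WT libraries, and the log2 fold change was 0.38 with a 95% interval of 0.12 to 0.64, but the adjusted p was 0.0606 (edgeR). The unadjusted p of 0.00957 from the same test leaves it just outside the threshold, and with DESeq2 the adjusted p was 0.0471. Gm21970, an annotated gene on the same strand, overlaps Il10rb and was given between 8 and 36 counts per library, against 1686 to 2138 for Il10rb.

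Both chains are needed for a signal, and their ratio was compared. Levels were taken per kilobase of merged exons, which adjusts for annotated exon length and not for the isoforms expressed. The ratio of Il10ra to Il10rb was then 3.28 and 4.28 in the WT libraries and 1.65 and 1.95 in the KO-labelled libraries. Il10ra exceeded Il10rb in every library, and the mean ratio went from 3.78 ± 0.702 to 1.8 ± 0.213 (SD, n = 2 libraries each), 2.09-fold lower by the mean of the log2 ratios. The exact permutation test (two-sided) gave p = 0.333, the smallest value that 2 against 2 libraries allow.

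Prdm1 encodes Blimp-1, a repressor that shapes effector and regulatory lymphocytes. It lies on chromosome 10 from 44437177 to 44528501 on the minus strand. Its counts were 824 and 1146 in WT and 1600 and 1745 in the KO-labelled libraries. The normalized counts of the WT libraries, 27.2 and 36.3, were far apart relative to the KO-labelled libraries, which both had 55.6. The rise was 1.75-fold, a log2 fold change of 0.83 with a 95% interval of 0.48 to 1.19 (adjusted p = 0.0116, edgeR). Without WT replicate 1 the log2 fold change was 0.64 with an adjusted p of 0.0523, and 0.0656 was the adjusted p when no genes were filtered out. In the other 10 alternatives Prdm1 passed the threshold.

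Among the members, a promoter sequence was at hand for Prdm1, and it is shown because Prdm1 is the transcription factor of the set that rose. The sequence is from RefSeq (GRCm38.p6), chr10:44458749-44458998 on the minus strand, and covers the 250 bases before a Prdm1 start site. This start lies within the annotated Prdm1 span, whose 5′ end on the minus strand is at 44528501. The sequence before that end was not searched. The window is printed 5′ to 3′, with the match to the AP-1 search pattern TGANTCA, in which N is any base, in capitals. Transcripts of the AP-1 factors Jun, Junb and Batf were measured in the same libraries and are described with the activators of Il10.
Prdm1: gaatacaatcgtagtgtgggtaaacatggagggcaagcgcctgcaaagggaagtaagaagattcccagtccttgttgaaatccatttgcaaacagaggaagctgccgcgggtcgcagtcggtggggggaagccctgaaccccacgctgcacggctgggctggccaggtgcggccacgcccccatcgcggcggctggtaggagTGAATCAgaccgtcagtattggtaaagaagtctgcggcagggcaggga
Of 4 motifs searched on both strands, the AP-1 pattern TGANTCA matched once, as TGAATCA, its first base 48 bases before the start. The pattern leaves the central base free, and 6.75% of the 32851 windows of the same length in the table held it. The Maf recognition core TGCTGA, the Prdm1 core GNGAAAG and the STAT site TTCNNNGAA had no match in this window, and they occurred in 16.1%, 19.4% and 7.02% of all windows. A match is a run of letters and not a measured binding site.

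Maf, on chromosome 8 from 115682942 to 115707794 on the minus strand, changed least. Its counts were 1802 and 1936 in WT and 1904 and 2137 in the KO-labelled libraries. The normalized counts were 59.5 and 61.3 in WT and 66.1 and 68.1 in the KO-labelled libraries. Both KO-labelled values were above both WT values, but the log2 fold change was 0.18 with a 95% interval of -0.07 to 0.43 (adjusted p = 0.312, edgeR), so a rise of up to 0.43 on the log2 scale lay within the interval. None of the 12 alternatives brought Maf past the threshold.

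**Figure D2:**
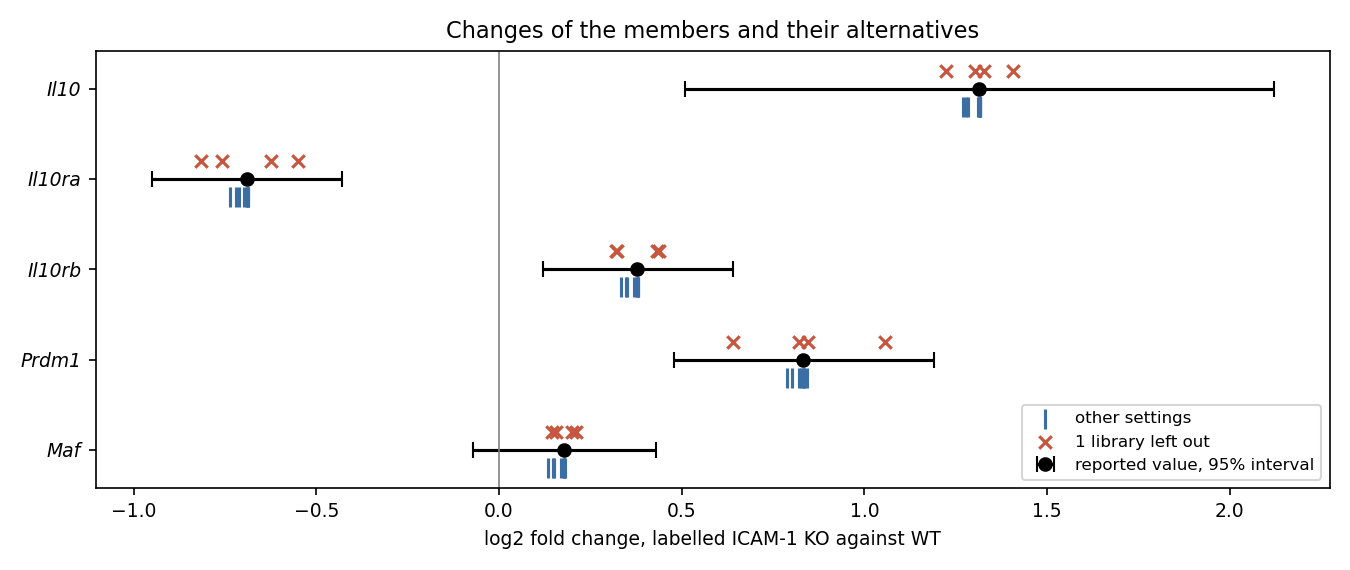
Log2 fold change (horizontal axis) of each member in the KO-labelled libraries against WT, with its 95% interval in black, the values under other settings as blue marks and the values with 1 library left out as red crosses. Il10 has the widest interval, 0.51 to 2.12, and the interval of Maf, -0.07 to 0.43, holds 0.

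Per kilobase of merged exons, the order of the members was the same in both WT libraries. Il10ra came first at 55 ± 7.12 normalized counts per kilobase (SD, n = 2 libraries), followed by Il10rb at 14.6 ± 0.832, Maf at 7.33 ± 0.156, Prdm1 at 5.7 ± 1.15 and Il10 at 1.93 ± 0.0219. In the KO-labelled libraries, Il10ra was at 33.4 ± 1.84, Il10rb at 18.7 ± 1.19, Prdm1 at 9.97 ± 0.00707, Maf at 8.14 ± 0.172 and Il10 at 4.68 ± 0.463. Per kilobase, Prdm1 and Maf thus changed places, with a ratio of Prdm1 to Maf of 0.676 and 0.875 in the WT libraries and of 1.24 and 1.21 in the others. Before division by exon length, Maf had the higher normalized count in every library. Maf was at 59.5 and 61.3 against 27.2 and 36.3 for Prdm1 in WT. In the KO-labelled libraries it was at 66.1 and 68.1 against 55.6 in both. Per kilobase, the WT means of Prdm1 and Maf differed by more than the SD of either, and no neighbours in either order had overlapping library values. The ratio of Il10 to Maf was 0.269 and 0.257 in WT and 0.624 and 0.527 in the KO-labelled libraries. The ratio of Il10 to Prdm1 was 0.397 and 0.293 in WT and 0.503 and 0.437 in the others. For each of these ratios the exact permutation test (two-sided) gave p = 0.333, the smallest value it can give here.

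**Figure D3:**
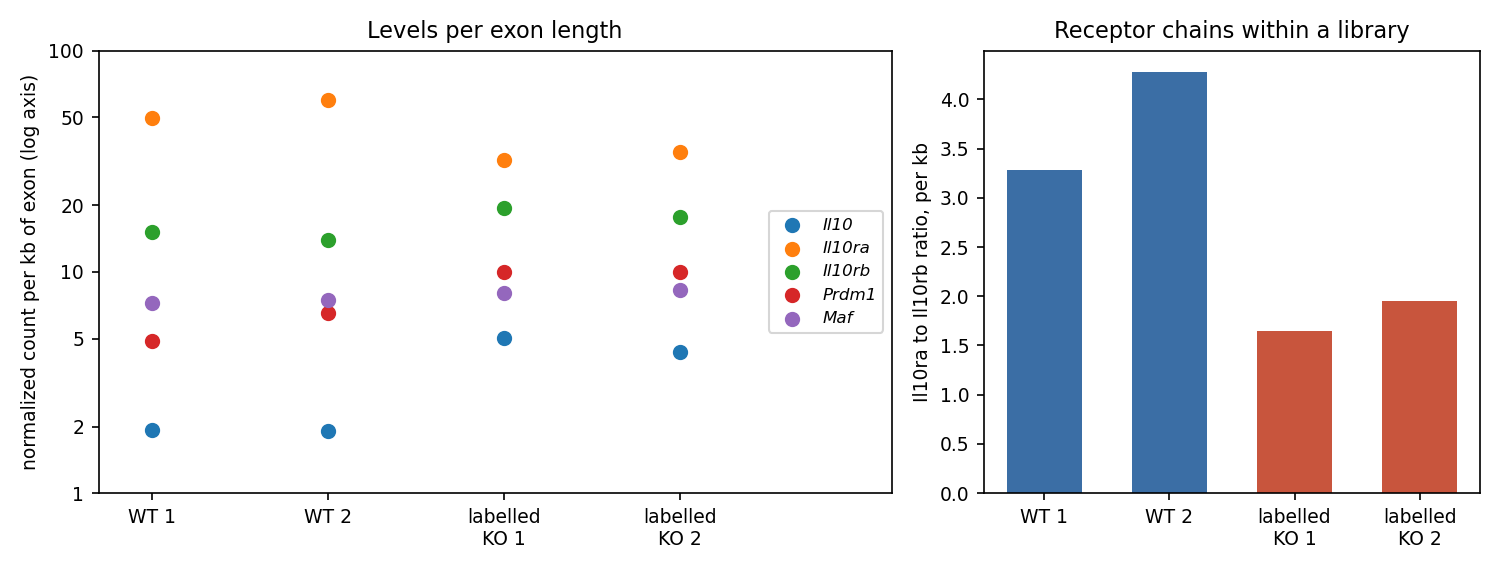
Left, normalized count per kilobase of merged exons (log axis) of the 5 members in each library, where Prdm1 is below Maf in both WT libraries and above it in both KO-labelled libraries. Right, the ratio of Il10ra to Il10rb per kilobase in each library (bars from 0), between 3.28 and 4.28 in WT and between 1.65 and 1.95 in the KO-labelled libraries.

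Downstream of the receptor, 10 genes of the IL-10 signal were looked at. None was called higher, 1 was called lower and 9 were not called, with a median log2 fold change of 0.05. Of all genes tested, 8.8% were called higher and 4.97% lower, against which the counts of each list are to be read. The kinase gene Jak1 had a log2 fold change of -0.08 and the factor gene Stat3 one of -0.03, with normalized counts of Stat3 of 372 and 408 in WT and of 373 and 378 in the KO-labelled libraries. The phosphatase gene Ptpn6 (0.18) was not called either. Socs3, a feedback inhibitor that IL-10 induces through STAT3, had 97.8 and 88.5 normalized counts in WT and 106 and 105 in the KO-labelled libraries (adjusted p = 0.209, edgeR). The gene called lower was Bcl3, an IκB-like nuclear protein gene that IL-10 induces in macrophages, which fell from 106 and 96.6 to 62.6 and 73 (log2 fold change -0.55, adjusted p = 0.019, edgeR). Hmox1, another gene that IL-10 induces in macrophages, had 4.89 and 9.34 normalized counts in WT and 11.7 and 24.1 in the KO-labelled libraries (adjusted p = 0.0551, edgeR).

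Of the relatives of IL-10 and its receptor, few passed the filter. Of 6 other cytokines of the IL-10 family, Il22 alone was analysed, with 64 and 19 counts in WT and 13 and 56 in the KO-labelled libraries, below the filter and overlapping between labels. Of 10 other genes of the class II cytokine receptor family, 4 passed the filter, of which 1 was called higher and none lower. This was Ifnar1, a chain of the type I interferon receptor, which rose from 144 and 145 to 224 and 251 normalized counts (log2 fold change 0.74, adjusted p = 0.00247, edgeR). Ifngr1, Ifnar2 and Ifngr2 were not called, with log2 fold changes of 0.41, 0.18 and -0.03.

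Of 17 other transcription factors known to activate Il10, 2 were called higher, 2 lower and 13 not called, with a median log2 fold change of -0.02. Of all genes tested, 8.8% were called higher and 4.97% lower, and the difference of the list from these shares was not tested. The most abundant were Junb, Rora, Gata3 and Rbpj, whose log2 fold changes of -0.20, 0.08, -0.14 and -0.25 did not pass the threshold. Batf, an AP-1 factor that acts with IRF4, fell from 146 and 149 to 105 and 106 normalized counts (log2 fold change -0.46, adjusted p = 0.0142, edgeR), and Nfil3 fell as well (-0.36, adjusted p = 0.0473). Ikzf3, which encodes Aiolos, rose (0.42, adjusted p = 0.0171), and so did Nfatc1 (0.46, adjusted p = 0.0212). Irf4 had 97 and 166 normalized counts in WT and 82.8 and 88.3 in the others, with an adjusted p of 0.0923. Jun had 340 and 268 in WT and 334 and 406 in the others, so that its groups overlapped.

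Among repressors of Il10 or Prdm1, the most abundant fell. This was Bhlhe40, which represses Il10 in T cells and went from 2010 and 1934 to 1442 and 1527 normalized counts (log2 fold change -0.38 with a 95% interval of -0.57 to -0.19, adjusted p = 0.0202, edgeR). Of the 7 repressors tested 1 was called lower, 1 higher and 5 were not called. The log2 fold change was positive for 6 of the 7, with a median of 0.36. The one called higher was Ets1 (0.32, adjusted p = 0.0344). Bcl6 and Bach2, both repressors of Prdm1, had at most 14.2 and 8.99 normalized counts in any library and were not called.

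Among relatives of Maf and Prdm1, Mafk, Mafg and Maff, which encode small Maf proteins, were not called, with log2 fold changes of 0.23, 0.06 and 0.29. Of 6 other Prdm genes tested, Prdm2 was called higher (0.55, adjusted p = 0.0488, edgeR) and 5 were not called.

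Coinhibitory receptor genes are known as targets that Prdm1 and Maf activate together in T cells. Of 7 tested, 3 were called higher, none lower and 4 were not called. Entpd1, which encodes the ectonucleotidase CD39, rose from 6.14 and 6.65 to 21.9 and 26.8 normalized counts (log2 fold change 1.96, adjusted p = 0.00165, edgeR). Tigit rose from 16.2 and 24 to 31.9 and 34.7 (0.76, adjusted p = 0.0415) and Klrg1 from 384 and 346 to 466 and 484 (0.41, adjusted p = 0.0191). Pdcd1, which encodes PD-1 and was the most abundant of them, had 825 and 913 in WT and 743 and 718 in the KO-labelled libraries (-0.22, adjusted p = 0.115), and Ctla4 had groups that overlapped. Havcr2 (-0.24, adjusted p = 0.349, edgeR) and Cd160 (-0.31, adjusted p = 0.667) also had negative log2 fold changes and were not called. Lag3, Pdpn and Procr were below the filter.

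Many markers of other lung cells were called higher in the KO-labelled libraries. The part of such cells in the changes of Il10, Prdm1 and Il10ra was not tested. ILC2s were sorted as CD45+ ST2+ CD127+ cells negative for CD3ε, CD4, CD5, TCRβ, CD11b, CD11c, CD45R and other lineage markers. Regulatory T cells are known to express Il10, Prdm1 and Maf. Of 7 of their markers tested, 4 were called higher and none lower, with summed normalized counts of the list of 705 and 918 in WT and of 1072 and 1186 in the KO-labelled libraries. Foxp3, which defines them, rose from 42.4 and 53.9 to 157 and 181 (log2 fold change 1.84, adjusted p = 0.000224, edgeR). Ikzf2 (1.53) and Lrrc32 (1.75) rose by over 2-fold as well, and Nt5e rose by 0.60. The most abundant of the list, Ctla4 (0.33, adjusted p = 0.164) and Tnfrsf18 (0.05, adjusted p = 0.839), were not called, and their groups overlapped. Ikzf4 (0.74, adjusted p = 0.0536) was not called either. Of 12 T cell markers, 7 were called higher and none lower, with summed values of 763 and 857 in WT and 1160 and 1368 in the others. Trac rose from 58.8 and 78.7 to 183 and 225 and Cd4 from 22.3 and 27.3 to 61.5 and 80.5, while Cd3e had 30.8 and 50.7 in WT and 37.5 and 52.2 in the others. Cd3g, one of the 4 most abundant T cell markers, lay the other way without being called, at 114 and 127 in WT and 81.1 and 107 in the KO-labelled libraries (log2 fold change -0.33, adjusted p = 0.158, edgeR). The most abundant of the list, Trbc2, had a log2 fold change of 0.25 and was not called.

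Macrophages and monocytes are known to express Il10, Il10ra and Maf. Of 14 of their markers tested, 10 were called higher and none lower, with summed values of 550 and 551 in WT and 960 and 1177 in the KO-labelled libraries. Lyz2 rose from 169 and 172 to 344 and 577 and Csf1r from 27.1 and 22 to 47.6 and 58.2. B and plasma cells, of which the latter depend on Prdm1, had 6 of 8 markers called higher, with summed values of 255 and 435 in WT and 674 and 810 in the others. Mzb1 rose from 12.9 and 42.7 to 82.2 and 100, and Jchain, the most abundant of them, was not called (adjusted p = 0.0877, edgeR). Dendritic cell markers (3 of 4 higher) summed to 34.2 and 35.1 in WT and 61.2 and 72.5 in the others. Mast cell and basophil markers (2 of 8) summed to 1262 and 1024 against 1440 and 1918, endothelial markers (8 of 8) to 118 and 122 against 316 and 328, and alveolar epithelial markers (5 of 6) to 108 and 96.7 against 520 and 1008. No gene of these lists was called lower, and none of the listed markers was at 0 in all 4 libraries.

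Of 16 ILC2 markers, 2 were called higher and 5 lower, with a median log2 fold change of -0.07. Il13 (-1.45), Il5 (-0.76), Arg1 (-0.65), Id2 (-0.56) and Il2ra (-0.51) fell and Ptprc (0.39) and Klrg1 rose, whereas Gata3, Rora and Il1rl1, which encodes the IL-33 receptor ST2, were not called. Il2ra, which encodes a chain of the IL-2 receptor, fell from 699 and 836 to 536 and 524 normalized counts (adjusted p = 0.0133, edgeR).

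**Figure D4:**
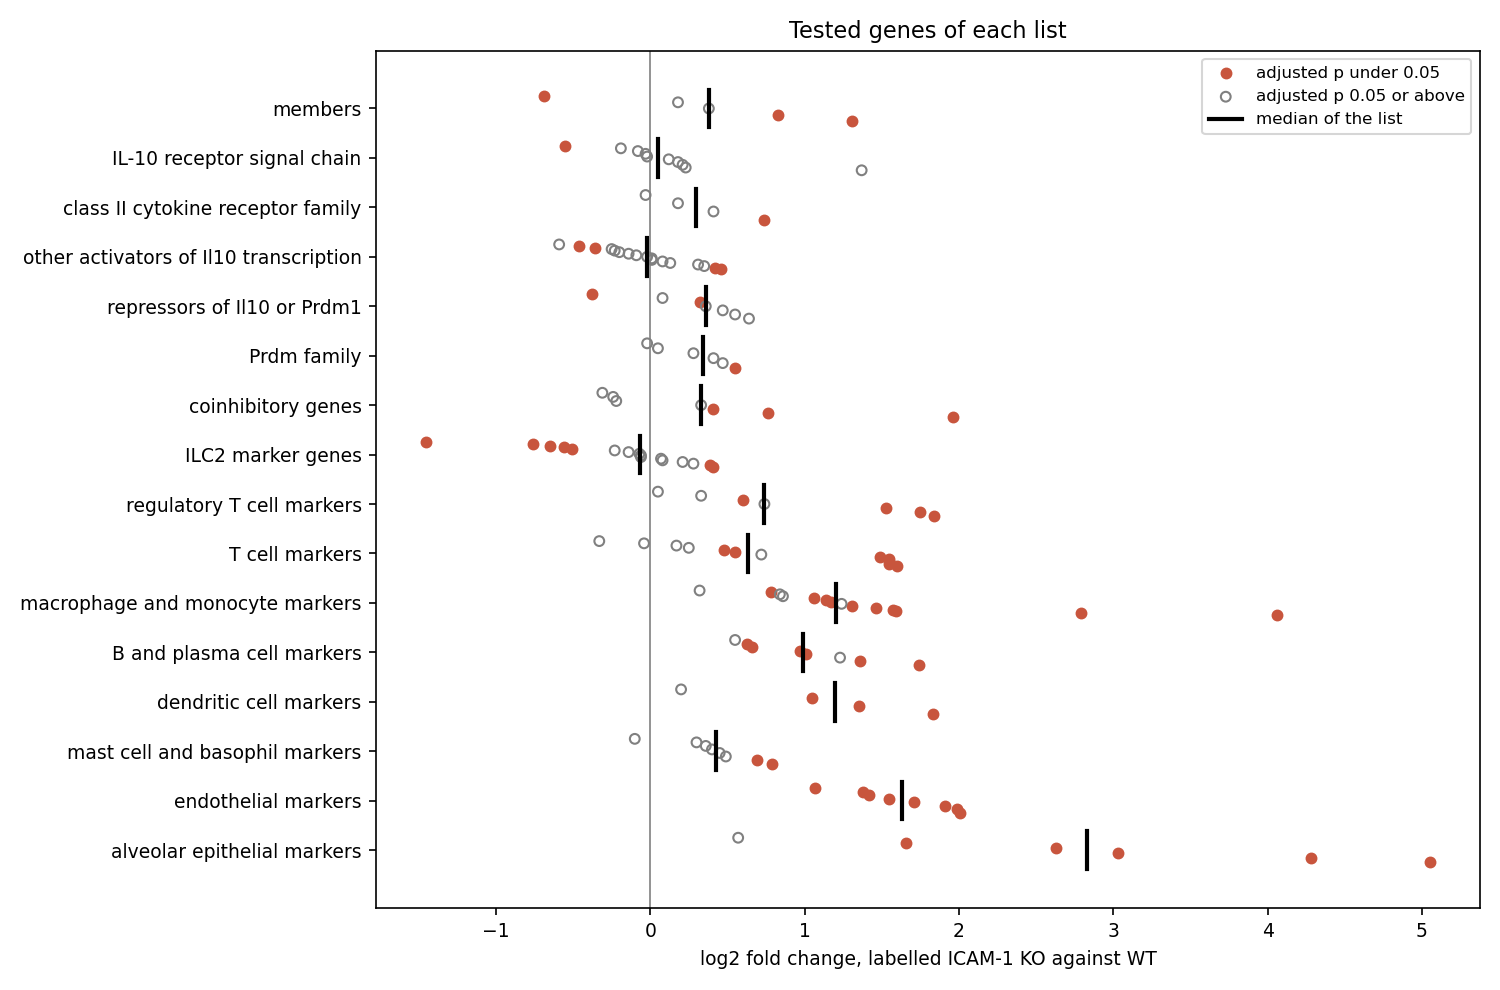
Log2 fold change (horizontal axis) of every tested gene of the lists shown, red where the adjusted p is under 0.05 and open where it is not, with the median of the list as a black line. The medians of the lists of other cells, from 0.43 to 2.83, lie right of those of the ILC2 markers (-0.07) and of the IL-10 receptor signal chain (0.05).

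The genes whose normalized counts followed the members most closely over the 4 libraries were found by the root mean square distance between log2 profiles, each centred on its own mean. With 4 libraries such likeness is common and carries no test. Closest to Il10 were Fam49a, Clec4e and Arhgef12, at distances of 0.0381, 0.0406 and 0.0412, and 18 genes lay within 0.1. Clec4e, a C-type lectin receptor of myeloid cells, had 5.35 and 5.41 normalized counts in WT and 13.8 and 12.8 in the KO-labelled libraries. Closest to Il10ra were Tnfsf11, which encodes RANKL, Ttc39c and Smyd2, at 0.0329, 0.0459 and 0.0493, among 82 genes within 0.1. Tnfsf11 had 101 and 124 in WT and 69.2 and 72 in the others. Closest to Il10rb were Pds5a, Vav2 and Tacc1, to Prdm1 Fam168a, Fbxo11 and Kmo, and to Maf Dnajb11, Dhrs11 and Odr4. Within 0.1 there were 547 genes for Il10rb, 56 for Prdm1 and 1299 for Maf.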

How the data were processed

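Sorted ILC2s were sequenced by the authors from low-input SMARTer cDNA, aligned with STAR to mm10 with GENCODE M20 and quantified in Partek. The deposited expected counts per gene (22558 genes) are not normalized and need not be whole, since shared reads are split. The deposited normalized signal (18324 genes), called normalized count here, was made by the authors by upper quartile normalization and holds the count plus 1 times a factor per library. Whether counting used strand is not given in the sources used here.

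The expected counts were rounded and tested with edgeR 4.0.16 in R 4.3.3 (glmQLFit with legacy set to FALSE, upper quartile factors, no covariate, two-sided) on 11711 genes, those whose normalized counts averaged 1 or more and summed to 10 or more, the limits of the study's methods. Its GSA test was not run. Standard errors and 95% intervals come from the quasi-likelihood F statistic. Calls are at an adjusted p under 0.05. Merged exon lengths are those of GENCODE M21, whose coordinates equal those of 21881 genes once the deposited end is moved by 1 base. Alternatives were TMM factors, DESeq2 1.42.0, 3 other filters, limma 3.58.1, the older quasi-likelihood method, a replicate block and each library left out. The scripts were tested on simulated data. Between 24796148 and 28782471 counts per library lie behind the values, and intervals on counts cover counting error only, since reads carry no molecular identifiers. The labels name 2 samples per group, and by the study each is a pool of 4 mice.

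The members and gene lists were chosen with earlier results of these data known. Named from each list were up to 4 of its most abundant tested genes and up to 4 more called at 2-fold or above. For each member the 3 nearest profiles were named, without predicted genes and antigen receptor segments, and for Il10 the genes within 200 kb. Bcl3, Socs3, Hmox1, Il22, Batf, Nfil3, Ikzf3, Nfatc1, Irf4, Jun, Havcr2, Cd160, Ikzf4, Cd3e, Il2ra, Ptprc, Il1rl1 and the genes below the filter were named after their values were seen. Some genes of the lists that the naming rule covers are not reported here.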

Additional observations from a re-analysis of the deposited data

How the results depend on the processing

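All 5 members kept their direction under the 12 alternatives run for each, and no scaling moved the median log2 fold change of all genes by over 0.1. With no filter on low counts, 535 genes were called in place of 1612, the log2 fold change was 1.27 for Il10 and 0.79 for Prdm1, and neither passed the threshold (adjusted p of 0.0957 and 0.0656), where 22158 genes were tested. For Il10 the call was also lost with edgeR's own filter (1.28, adjusted p = 0.0645), with the older quasi-likelihood method (1.32, 0.0544), with limma (1.28, 0.0586) and with the replicate block (1.31, 0.0558). It held with TMM factors, DESeq2 and at least 10 counts in every library, with adjusted p between 0.0246 and 0.0451. For Il10rb the call was gained with DESeq2 (0.37, adjusted p = 0.0471). When libraries were left out singly, the number of called genes ranged from 681 to 1305, and it was 687 without WT replicate 1 and 681 without WT replicate 2. The log2 fold change then ranged from 1.22 to 1.41 for Il10 (adjusted p from 0.0795 to 0.136), from -0.82 to -0.55 for Il10ra (0.00059 to 0.0396), from 0.32 to 0.44 for Il10rb, from 0.64 to 1.06 for Prdm1 (0.00605 to 0.0523) and from 0.15 to 0.21 for Maf, with the lone library of a label assumed to vary like the others. The replicate numbers name no shared animal or day, and deviations of same-numbered libraries correlated at -0.07. With the replicate block 1715 genes were called, and the log2 fold changes were -0.69 for Il10ra, 0.38 for Il10rb, 0.84 for Prdm1 and 0.18 for Maf, with no call changed but that of Il10. The causes of these losses were not tested. Of the 5 members, Il10 had the largest counting error, 7.29% to 11.5% of its count per library, against at most 3.48% for the other members.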

Other observations

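Il10 sits in a group of genes on chromosome 1, and within 200 kb none of its neighbours was called. Mapkapk2, which encodes a kinase that stabilizes cytokine RNAs, had 338 and 320 normalized counts in WT and 267 and 262 in the KO-labelled libraries (log2 fold change -0.29, adjusted p = 0.051, edgeR). Fcmr, an Fc receptor gene of IgM, had 13.8 and 8.71 in WT and 17.5 and 16.3 in the others (0.62, adjusted p = 0.145). Dyrk3 (-0.25), Eif2d (-0.20), Rassf5 (-0.04) and Pigr (-0.56) were not called, and Il10 was the only gene of the 7 tested in this window with an adjusted p under 0.05. Gm37084, a predicted gene below the filter, had 12 and 11 counts in WT and 89 and 32 in the KO-labelled libraries.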
